A study of Mus musculus with 84 samples.

Results

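The cholinergic receptor genes described here are 8 genes of the 55401 gene IDs counted in the series: the muscarinic receptors Chrm1, Chrm2, Chrm3 and Chrm4 and the nicotinic subunits Chrna4, Chrna5, Chrna7 and Chrnb2. They were taken by name, and each symbol matched 1 Ensembl gene ID. They were followed in neuronal nuclei of the mouse frontal cortex, dissected anterior to bregma +1 mm, of mice given DOI once by injection; DOI, or 2,5-dimethoxy-4-iodoamphetamine, is a psychedelic drug and a serotonin 2A receptor agonist. All mice were 12 weeks old and of the 129S6/SvEvTac strain. The groups were vehicle, and 24 h, 48 h and 7 days after DOI, with RNA of 4 mice in each and 2 libraries per mouse, which were summed. The nuclei were sorted with an antibody to NeuN, a protein of neuronal nuclei, so the RNA is nuclear and pools all neuron types of 1 piece of cortex. The design text gives 6 mice per group, of which 4 per group were analysed here.

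Acetylcholine reaches the frontal cortex mainly from neurons of the basal forebrain and acts there on muscarinic and nicotinic receptors. Muscarinic receptors are coupled to G proteins: Chrm1 and Chrm3 act through Gq and phospholipase C, which among other effects closes M-type potassium channels, while Chrm2 and Chrm4 act through Gi and Go, which lower adenylyl cyclase activity and open G protein-gated potassium channels. Nicotinic receptors are ion channels of several subunits. Chrna4 and Chrnb2 together form the main high-affinity nicotine receptor of the brain, Chrna5 can join them as an accessory subunit and is known for its part in deep-layer pyramidal neurons, and Chrna7 forms channels of its own with a high calcium permeability.

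Per the file annotation (GRCm38), all 8 genes are protein-coding, and the counts are of their exons. Chrm1 (ENSMUSG00000032773) lies at chr19:8663789-8683587 on the plus strand, Chrm2 (ENSMUSG00000045613) at chr6:36388084-36528414 on the plus strand, and Chrm3 (ENSMUSG00000046159) at chr13:9875486-10360847 on the minus strand. Chrm4 (ENSMUSG00000040495) is a single exon block of 1440 bases at chr2:91927249-91928688 on the plus strand. Of the nicotinic genes, Chrna4 (ENSMUSG00000027577) lies at chr2:181018380-181043546 on the minus strand and Chrnb2 (ENSMUSG00000027950) at chr3:89746195-89764632 on the minus strand. Chrna5 (ENSMUSG00000035594) lies at chr9:54980880-55007779 on the plus strand and Chrna7 (ENSMUSG00000030525) at chr7:63098692-63212569 on the minus strand. Exons of 3 members share bases with a gene on the other strand: 1365 of the 8380 exon bases of Chrnb2 with Adar, 329 of the 6487 of Chrm1 with Gm22820, and 142 of the 6053 of Chrm2 with the long non-coding RNA 9330158H04Rik. Reads on such shared bases are left out by the counting tool's defaults, and the remaining reads were counted without regard to strand.

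The sequences before the transcript start are shown for Chrnb2 and Chrna7, whose RNA differed from vehicle in opposite directions at 24 h and 48 h, for Chrm3, which differed less, and for Chrm2, which passed no test. They are RefSeq sequences of GRCm38.p6, 5′ to 3′ on the strand of the gene, ending where the Ensembl gene of the count files begins. For Chrna7 and Chrm3 the last 43 and 44 of the 250 bases before the RefSeq start were left out, since they lie inside the Ensembl gene. Chrnb2 is shown at chr3:89764633-89764882, Chrna7 at chr7:63212570-63212776, Chrm3 at chr13:10360848-10361053 and Chrm2 at chr6:36387834-36388083. Capitals mark exact matches, on either strand, to TGACG (the core letters of a cyclic AMP response element), TGACGTCA (the whole element), TGANTCA (AP-1), GCGNGGGCG (EGR), GGGCGG (SP1 and KLF) and CACGTG (an E-box). TGACG is contained in TGACGTCA.
Chrnb2: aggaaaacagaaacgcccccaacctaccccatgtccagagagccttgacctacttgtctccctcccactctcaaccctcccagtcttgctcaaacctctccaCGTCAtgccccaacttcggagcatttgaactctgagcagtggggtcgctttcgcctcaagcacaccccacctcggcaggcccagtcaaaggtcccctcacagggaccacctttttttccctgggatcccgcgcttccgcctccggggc
Chrna7: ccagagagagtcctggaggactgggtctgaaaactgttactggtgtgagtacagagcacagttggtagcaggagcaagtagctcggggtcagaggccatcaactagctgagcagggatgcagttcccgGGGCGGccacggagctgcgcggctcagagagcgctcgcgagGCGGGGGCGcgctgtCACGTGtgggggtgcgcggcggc
Chrm3: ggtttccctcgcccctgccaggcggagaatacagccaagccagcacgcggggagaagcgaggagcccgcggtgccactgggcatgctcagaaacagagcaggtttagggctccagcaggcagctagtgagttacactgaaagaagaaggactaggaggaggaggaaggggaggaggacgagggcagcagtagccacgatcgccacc
Chrm2: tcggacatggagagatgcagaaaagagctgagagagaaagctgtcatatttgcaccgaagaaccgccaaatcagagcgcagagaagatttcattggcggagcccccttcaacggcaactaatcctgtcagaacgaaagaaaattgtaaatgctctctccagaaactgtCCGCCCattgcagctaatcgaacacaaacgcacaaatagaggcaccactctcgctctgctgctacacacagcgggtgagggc
The Chrnb2 window held a single match, the core letters TGACG, in the reverse direction. The Chrna7 window held GGGCGG, the EGR motif and the E-box, Chrm3 held none of the 6 motifs and Chrm2 held GGGCGG. Of 32851 windows of 250 bases before a RefSeq start, 17.8% held TGACG, 1.55% TGACGTCA, 6.75% TGANTCA, 4.70% GCGNGGGCG, 32.7% GGGCGG and 6.02% CACGTG. None of the 8 such windows found for 7 of the members, Chrna5 having a pair of them, held TGACGTCA or TGANTCA. No entry was found for Chrm1. These matches describe letters and were not tested for binding.

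The libraries of a mouse summed to 9151680 to 11517452 counts in vehicle, 6441396 to 8090559 in the 24 h mice, 5834248 to 7344355 in the 48 h mice and 6972577 to 12354785 in the 7-day mice, so vehicle totals did not overlap those of 24 h and 48 h. The share of counts on the ribosomal RNA gene copy Rn18s-rs5 ranged from 0.00694% to 0.0101% in vehicle, from 0.328% to 1.57% at 24 h and from 0.523% to 1.66% at 48 h. In 7-day mice 1 to 4 it was 0.00834%, 0.633%, 0.00607% and 0.474%. Mitochondrial counts took 0.0171% to 0.0701% in vehicle, 0.0621% to 0.101% in the 24 h mice, 0.108% to 0.268% in the 48 h mice and 0.0210% to 0.130% in the 7-day mice. These values moved with the groups and with the members described next. The Rn18s-rs5 share of every 24 h and 48 h mouse lay above all vehicle mice, as did the mitochondrial share of every 48 h mouse. A fit with such a share as a covariate cannot tell it apart from the group at these times. The covariate fits are therefore given as values only, and the part of these shares in the results was not tested. In a fit with the Rn18s-rs5 share as a covariate, chosen after seeing the data, none of the 17941 genes tested was called in any contrast. With the mitochondrial share as a covariate, 2263 genes were called at 24 h and 0 at 48 h.

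Chrnb2 and Chrm1 rose severalfold at 24 h and 48 h after DOI and Chrna7 fell. Of the other 4 tested members Chrm3 alone was called, at 48 h. At 24 h 3 of the 7 members tested were called, Chrnb2 and Chrm1 higher and Chrna7 lower. At 48 h 4 of 7 were called, with Chrm3 added on the higher side. At 7 days 0 of 7 were called. A gene was called where edgeR's quasi-likelihood test gave a Benjamini-Hochberg adjusted p under 0.05 over 17941 genes, and Chrm4 had too few counts to be tested. Over all tested genes, 13.8% were called higher and 10.4% lower at 24 h, 16.8% higher and 13.3% lower at 48 h, and 0% at 7 days. When all 4 groups were compared in 1 test, 3 of 7 members (Chrnb2, Chrm1 and Chrna7) were called, against 18.8% of all genes. The median log2 fold change of the 7 tested members was 0.39, 0.53 and 0.05 at these times, beside 0.03, 0.02 and 0.02 over all genes.

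**Figure D1:**
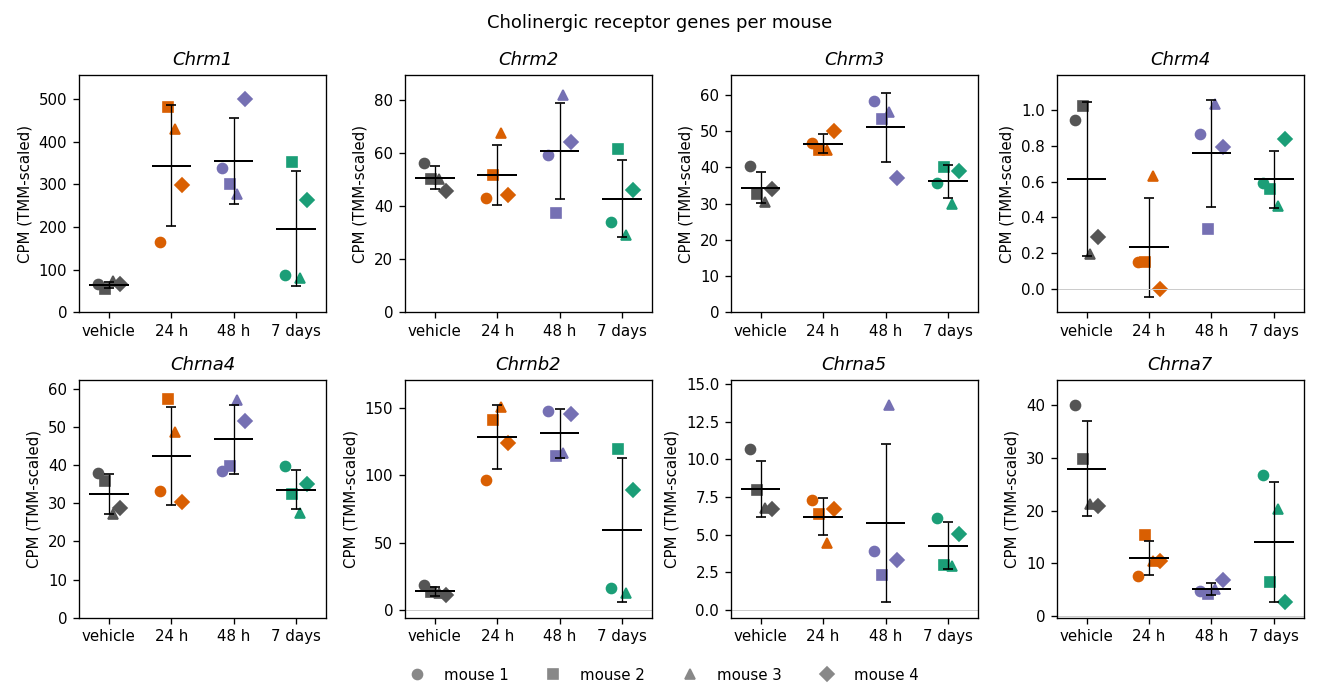
Level of each receptor gene in every mouse, in CPM scaled with TMM factors, by group; symbols give the mouse number within its group, bars the mean ± SD of 4 mice. Chrnb2 and Chrm1 are higher in every 24 h and 48 h mouse than in any vehicle mouse and Chrna7 is lower. At 7 days Chrnb2 ranges from 12.3 to 120 CPM and Chrna7 from 2.65 to 26.7 CPM.

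Among the muscarinic genes, Chrm1, the main Gq-coupled muscarinic receptor of cortical pyramidal neurons, had the larger change. In vehicle mice 1 to 4 it stood at 65.9, 54.3, 72.6 and 65.5 CPM (counts scaled to library size with edgeR's TMM factors). At 24 h it stood at 164, 481, 429 and 299 CPM and at 48 h at 339, 300.0, 276 and 499 CPM. All 8 of these mice lay above the highest vehicle mouse, and 24 h mouse 1 was the lowest of them. The log2 fold change was 2.41 at 24 h (SE 0.41, a fold of 5.32, edgeR adjusted p = 0.00219) and 2.45 at 48 h (SE 0.41, a fold of 5.48, edgeR adjusted p = 0.00162). The group means were 64.6 ± 7.58 CPM in vehicle (SD, n = 4), 343 ± 142 at 24 h and 354 ± 100.4 at 48 h. With each mouse left out in turn the adjusted p stayed between 0.00202 and 0.0110 at 24 h and between 0.00363 and 0.00803 at 48 h. With the Rn18s-rs5 share as a covariate the log2 fold changes were 1.40 (edgeR adjusted p = 0.153) and 1.32 (edgeR adjusted p = 0.251), and with the mitochondrial share they were 2.10 (edgeR adjusted p = 0.00761) and 1.57 (edgeR adjusted p = 0.184).

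Chrm3, which shares the Gq coupling of Chrm1, differed far less. Its vehicle mice stood at 40.3, 32.6, 30.5 and 34.1 CPM, its 24 h mice at 46.6, 44.8, 44.8 and 50.1 CPM and its 48 h mice at 58.3, 53.4, 55.4 and 37.1 CPM. The 24 h mice lay above all vehicle mice, while 48 h mouse 4 lay within the vehicle range. On the log2 scale the difference was 0.44 at 24 h (SE 0.18, edgeR adjusted p = 0.0775) and 0.57 at 48 h (SE 0.18, edgeR adjusted p = 0.0235). The 24 h value was called under 5 alternatives: DESeq2 (0.46), voom with quality weights (0.47), counts scaled by totals alone (0.55), the 32 libraries with the mouse as a random effect (0.49) and a fit of only these 2 groups (0.46), with adjusted p of 0.0113 to 0.0492. The 48 h call was lost when any of vehicle mice 2, 3 or 4 or 48 h mice 1, 2 or 3 was left out, with adjusted p up to 0.0675. It was also lost with no filter on low counts (0.51, edgeR adjusted p = 0.166), with the mitochondrial share as a covariate (0.63, edgeR adjusted p = 0.274) and with the Rn18s-rs5 share (0.42, edgeR adjusted p = 0.457).

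Chrm2, a Gi-coupled receptor found on cholinergic terminals and on some cortical neurons, was not called at any time. It averaged 50.7 ± 4.39 CPM in vehicle (SD, n = 4), 51.6 ± 11.3 after 24 h, 60.8 ± 18.2 after 48 h and 42.8 ± 14.5 after 7 days. The 95% interval of its log2 fold change ran from -0.49 to 0.55 at 24 h, from -0.26 to 0.78 at 48 h and from -0.76 to 0.28 at 7 days. Its values spread more after DOI: the standard deviation was 8.66% of the mean in vehicle and 30.0% at 48 h, where mouse 2 had 37.5 CPM and mouse 3 had 81.8 CPM. This spread was not tested.

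Chrm4, the other Gi-coupled member and a gene better known from the striatum, was at or near the limit of detection. Its mice had 10, 9, 2 and 3 counts in vehicle, 1, 1, 5 and 0 at 24 h, 6, 2, 7 and 6 at 48 h, and 7, 5, 4 and 6 at 7 days. A level of 3 counts, taken as the floor, came to 0.254 to 0.500 CPM over the 16 mice. The mouse with 0 counts allows a level of up to 0.354 CPM, and the limit covers counting error only. The files count Chrm4 over 1440 bases, so its level may not cover the whole transcript. In a fit with no filter on low counts its log2 fold change was -1.36 at 24 h (edgeR adjusted p = 0.478), 0.25 at 48 h (edgeR adjusted p = 0.984) and -0.02 at 7 days (edgeR adjusted p = 1).

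Of the nicotinic subunits, Chrnb2 rose by the largest factor of the 7 tested members. It stood at 18.8, 13.5, 12.5 and 10.9 CPM in vehicle mice 1 to 4, at 96.8, 142, 151 and 124 CPM at 24 h, and at 148, 115, 117 and 146 CPM at 48 h. The lowest 24 h mouse was more than 5 times the highest vehicle mouse. The log2 fold change was 3.20 at 24 h (SE 0.52, a fold of 9.21, edgeR adjusted p = 0.00176) and 3.23 at 48 h (SE 0.52, a fold of 9.41, edgeR adjusted p = 0.00155). It ranked as the 60th of 17941 genes by p at 24 h and the 62nd at 48 h. The group means were 13.9 ± 3.44 CPM in vehicle (SD, n = 4), 128 ± 23.9 at 24 h and 131 at 48 h, where the mice ranged from 115 to 148. Both calls held with each mouse left out in turn, with adjusted p of at most 0.0110. With the Rn18s-rs5 share as a covariate the log2 fold changes were 2.29 (edgeR adjusted p = 0.104) and 2.13 (edgeR adjusted p = 0.195), and with the mitochondrial share they were 2.86 (edgeR adjusted p = 0.00690) and 2.35 (edgeR adjusted p = 0.140).

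Adar, the RNA-editing enzyme gene on the opposite strand whose exons overlap those of Chrnb2, rose as well. It stood at 6.96 to 13.3 CPM in vehicle, 29.0 to 67.5 at 24 h and 48.0 to 96.3 at 48 h, with log2 fold changes of 2.36 (SE 0.43, edgeR adjusted p = 0.0029) and 2.66 (SE 0.44, edgeR adjusted p = 0.00158). Since strand was not used in counting, reads of the 2 genes outside the shared bases cannot be told apart by strand, and the part of Adar in the Chrnb2 count was not tested. Gm22820, which overlaps Chrm1, had 0 counts in all 16 mice. The neighbour of Chrm2, 9330158H04Rik, was not called at 24 h (log2 fold change 0.48, edgeR adjusted p = 0.308) or 48 h (0.88, edgeR adjusted p = 0.0587).

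Chrna4, the partner subunit of Chrnb2, did not pass the test. Its vehicle mice stood at 38.0, 35.7, 27.2 and 28.6 CPM, its 24 h mice at 33.1, 57.4, 48.7 and 30.2 CPM and its 48 h mice at 38.6, 39.9, 57.2 and 51.6 CPM. The 24 h mice overlapped vehicle, and the 48 h mice lay just above it. The log2 fold change was 0.39 at 24 h (SE 0.22, edgeR adjusted p = 0.212) and 0.53 at 48 h (SE 0.22, edgeR adjusted p = 0.0784), with 95% intervals of -0.08 to 0.86 and 0.06 to 1.00. With voom and quality weights the 24 h value was 0.60 (limma adjusted p = 0.0114). Under 4 alternatives the 48 h value was called: with counts scaled by totals alone (0.63), voom with quality weights (0.66), the 32 libraries with the mouse as a random effect (0.57) and a fit of only these 2 groups (0.56).

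Chrna7 fell at 24 h and at 48 h, and the 24 h call was close to the threshold. Its vehicle mice stood at 40.0, 29.8, 21.3 and 20.8 CPM, its 24 h mice at 7.59, 15.4, 10.5 and 10.5 CPM, and its 48 h mice at 4.62, 4.17, 5.17 and 6.76 CPM. No mouse of either group reached the lowest vehicle mouse. The log2 fold change was -1.34 at 24 h (SE 0.48, edgeR adjusted p = 0.0472) and -2.42 at 48 h (SE 0.50, edgeR adjusted p = 0.00313). The 24 h call was lost whichever 1 of the 8 mice was left out, with values of -1.55 to -1.12 and adjusted p of 0.0505 to 0.138. It was also lost with the mouse number as a replicate block (-1.26, edgeR adjusted p = 0.0808), scaling by totals alone (-1.23, 0.0608), library 2 alone (-1.18, 0.0886), thinned counts (-1.31, 0.0571), and the mitochondrial (-1.03, 0.173) or Rn18s-rs5 (-1.01, 0.511) share as a covariate. At 48 h the value stayed between -2.60 and -2.20 with each mouse left out, and every one of these fits called it. With the mitochondrial share as a covariate the 48 h value was -1.48 (edgeR adjusted p = 0.418), and with the Rn18s-rs5 share it was -2.04 (edgeR adjusted p = 0.295).

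Chrna5, the accessory subunit, was the lowest of the 4 nicotinic members in CPM in vehicle and was not called. It averaged 8.01 ± 1.85 CPM in vehicle (SD, n = 4), 6.20 ± 1.24 after 24 h, 5.78 ± 5.24 after 48 h and 4.26 ± 1.56 after 7 days. At 48 h mice 1, 2 and 4 had 3.90, 2.33 and 3.31 CPM while mouse 3 had 13.6 CPM, above every vehicle mouse. At 48 h the log2 fold change was -0.47 (SE 0.46, edgeR adjusted p = 0.454), and without mouse 3 it was -1.33 (edgeR adjusted p = 0.0248). At 7 days all 4 mice (6.08, 3.02, 2.91 and 5.02 CPM) lay below the lowest vehicle mouse at 6.70 CPM, with a log2 fold change of -0.91 (SE 0.46, edgeR adjusted p = 0.326).

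**Figure D2:**
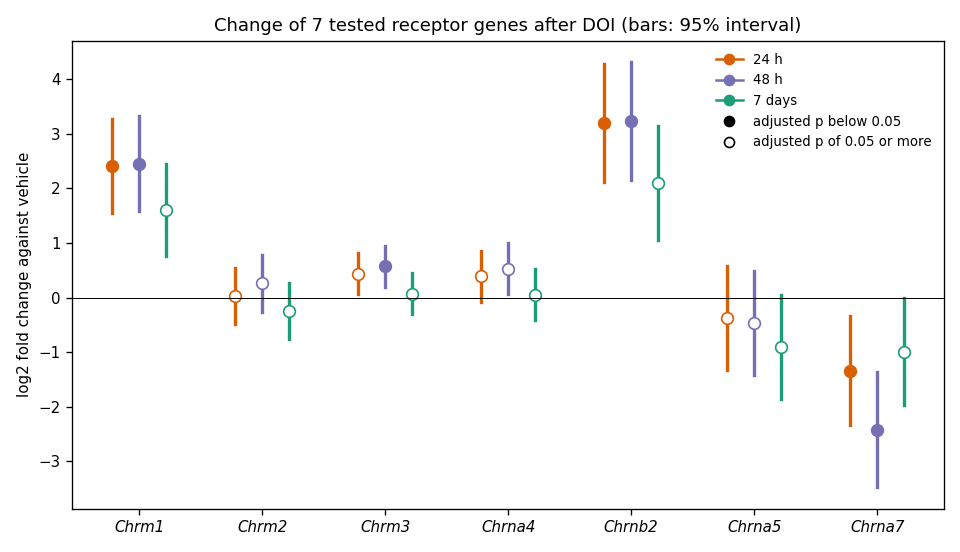
Log2 fold change against vehicle of the 7 tested receptor genes at 24 h, 48 h and 7 days (edgeR), with 95% intervals; filled points have an adjusted p below 0.05. Chrnb2 and Chrm1 stand at 3.20 and 2.41 at 24 h and at 3.23 and 2.45 at 48 h, and Chrna7 at -1.34 and -2.42, while no point at 7 days is filled.

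The members were also counted by whether their mice overlapped vehicle, which differs from the calls for Chrm3 at both times, Chrna4 at 48 h, and Chrm1 and Chrna5 at 7 days. At 24 h the mice of 4 of 7 members lay wholly outside the vehicle range (Chrnb2, Chrm1 and Chrm3 above, Chrna7 below), against 35.6% of all tested genes. At 48 h it was again 4 of 7 (Chrnb2, Chrm1 and Chrna4 above, Chrna7 below), against 38.1%. At 7 days it was 2 of 7 (Chrm1 above, Chrna5 below), against 5.85%.

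At 7 days the mice were widely spread for Chrnb2, Chrm1 and Chrna7. Chrnb2 stood at 16.6, 120, 12.3 and 89.5 CPM in mice 1 to 4, so that mice 1 and 3 were within the vehicle range and mice 2 and 4 above it. Chrm1 stood at 88.1, 353, 80.8 and 262 CPM, and all 4 mice lay above the highest vehicle mouse at 72.6 CPM. Chrna7 stood at 26.7, 6.37, 20.3 and 2.65 CPM. For Chrnb2 and Chrm1 the mice stood in the same order as for the Rn18s-rs5 share given above, highest in mouse 2 and lowest in mouse 3. The 9 striatal projection neuron markers described below summed to 722, 2073, 458 and 1543 CPM in mice 1 to 4, and 6 of the 9 stood in this order singly. Of the 8 tested, 0 were called against vehicle and 7 had an unadjusted p under 0.05 in edgeR, with a median log2 fold change of 1.61. Of the 5 glutamatergic neuron markers, Camk2a stood at 127, 1173, 163 and 1002 CPM, while the other 4 summed to 321, 172, 247 and 202 CPM, lower in mice 2 and 4. Their part in the 7-day values was not tested. Adar stood at 8.20, 31.8, 10.5 and 39.5 CPM in the same mice. With the Rn18s-rs5 share as a covariate the 7-day log2 fold change was 1.66 for Chrnb2 (edgeR adjusted p = 0.244), 1.21 for Chrm1 (edgeR adjusted p = 0.248) and -0.96 for Chrna7 (edgeR adjusted p = 0.397). The part of Adar in these values was not tested. Against vehicle, the log2 fold change at 7 days was 2.09 for Chrnb2 (SE 0.50, edgeR adjusted p = 0.0960), 1.60 for Chrm1 (SE 0.40, edgeR adjusted p = 0.0960) and -0.99 for Chrna7 (SE 0.47, edgeR adjusted p = 0.295). The unadjusted p of these 3 members was under 0.05, as it was for 3012 of the 17941 genes. DESeq2, which called 796 genes in all at 7 days, called Chrnb2 (adjusted p = 0.00358) and Chrm1 (adjusted p = 0.00665). Leaving out 7-day mouse 1 gave edgeR adjusted p-values of 0.00639 for Chrnb2 and 0.0104 for Chrm1, and leaving out mouse 3 gave 0.00839 and 0.0116. Over all genes these fits called 1342 of 18474 and 1160 of 18457. Leaving out mouse 2 gave edgeR adjusted p-values of 0.380 for Chrnb2 and 0.395 for Chrm1, and the fits without mouse 2 or mouse 4 called 0 genes. Chrm3 and Chrna4 were close to vehicle at 7 days, with log2 fold changes of 0.07 (95% interval -0.30 to 0.45) and 0.05 (-0.42 to 0.52).

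The times after DOI were also compared with each other, and no member was called in edgeR's test with the filter on low counts and all 16 mice. For 48 h against 24 h 0% of all genes were called, for 7 days against 24 h 0.00557% (1 gene, a striatal projection neuron marker), and for 7 days against 48 h 0%. At an unadjusted p under 0.05 there were 1, 1 and 5 members in these contrasts, against 338, 2555 and 2959 of the 17941 genes. DESeq2 called 0 members in each, and 0, 365 and 434 genes in all. Chrna7 was lower at 48 h than at 24 h by a log2 fold change of -1.08 (SE 0.50, edgeR adjusted p = 1), with no overlap between the 7.59 to 15.4 CPM of the 24 h mice and the 4.17 to 6.76 CPM of the 48 h mice. Chrnb2 differed by 0.03 between these times (95% interval -0.95 to 1.02) and Chrm1 by 0.04 (-0.78 to 0.86). At 7 days against 48 h, Chrnb2 stood at -1.14 (SE 0.48, edgeR adjusted p = 0.248) and Chrna7 at 1.44 (SE 0.49, edgeR adjusted p = 0.184). With the 32 libraries and the mouse as a random effect, fitted in limma, Chrnb2 stood at -1.89 (limma adjusted p = 0.000707) and Chrm1 at -1.16 (limma adjusted p = 0.00812). This fit called 1205 of 15613 genes and shared 1 correlation between the libraries of a mouse over all genes. For Chrnb2 the libraries of a 7-day mouse differed far less than the 7-day mice did, so its p can be too small. With no filter on low counts Chrnb2 (-1.11, edgeR adjusted p = 0.0127) and Chrna7 (1.51, edgeR adjusted p = 0.0119) were called, among 665 of 36503 genes. Without 7-day mouse 4 the Chrna7 value was 1.76 (edgeR adjusted p = 0.0378), 1 of 438 genes called of 18448.

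Levels of different genes were compared per kilobase of annotated exon, bases shared with another gene included. In vehicle the order was Chrm1 at 9.96 ± 1.17 CPM per kb (SD, n = 4), Chrm2 at 8.38 ± 0.73, Chrna4 at 6.45 ± 1.05, Chrna7 at 6.21 ± 2.01, Chrm3 at 5.50 ± 0.68, Chrna5 at 2.56 ± 0.59, Chrnb2 at 1.66 ± 0.41 and Chrm4 at 0.425 ± 0.298. The ranges of neighbours in this order overlapped between mice, except that Chrm3 lay above Chrna5 and Chrnb2 above Chrm4 in all 4 mice of each. Within each vehicle mouse Chrm1 also stood above Chrm2, Chrm2 above Chrna4 and Chrna5 above Chrnb2. At 24 h the order began with Chrm1 at 52.9 ± 21.8 and Chrnb2 at 15.3 ± 2.85 CPM per kb, followed by Chrm2 at 8.53 ± 1.86 and Chrna4 at 8.43 ± 2.57. Chrm3 stood at 7.45 ± 0.40, Chrna7 at 2.44 ± 0.72 and Chrna5 at 1.98 ± 0.40. At 48 h Chrm1 was at 54.5 ± 15.5, Chrnb2 at 15.7 ± 2.15 and Chrna7 at 1.15 ± 0.25 CPM per kb. At 7 days Chrm1 was at 30.2 ± 20.7 and Chrnb2 at 7.11 ± 6.39. Chrnb2 thus stood in the seventh place in vehicle and the second at 24 h and 48 h. Since reads on shared bases are not counted, this length by itself lowers the levels per kb of Chrnb2, Chrm1 and Chrm2. Reads from the other strand would raise them, and their part was not tested. With the shared bases left out of the length, an alternative added after seeing the data, Chrnb2 stood at 1.99 CPM per kb in vehicle and 18.3 at 24 h, and the order of the 8 means was the same in each group. Chrm2 then no longer overlapped Chrna4 in vehicle.

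Within a mouse, the ratio of the receptor partners Chrna4 and Chrnb2 was above 1 in every vehicle mouse and below 1 in every 24 h and 48 h mouse. Chrna4 exceeded Chrnb2 by 3.36, 4.42, 3.62 and 4.40 times per kb in the vehicle mice, while the ratio was 0.406 to 0.677 at 24 h and 0.436 to 0.818 at 48 h. In 7-day mice 1 to 4 it was 3.97, 0.449, 3.70 and 0.652. The ratio of Chrm1 to Chrm3, both Gq-coupled, was 1.58 to 2.30 in vehicle, 3.40 to 10.3 after 24 h, 4.81 to 13.0 after 48 h and 2.38 to 8.49 after 7 days. Chrna5 to Chrna4 was 0.357 to 0.450 in vehicle, 0.146 to 0.358 after 24 h, 0.0941 to 0.382 after 48 h and 0.150 to 0.247 after 7 days. With shared bases left out of the length, Chrna4 to Chrnb2 was 2.81 to 3.70 in vehicle, 0.340 to 0.567 after 24 h and 0.365 to 0.685 after 48 h. The ratio of Chrm2 to Chrm4 ranged from 11.7 to 61.0 in vehicle and rests on 2 to 10 Chrm4 counts per mouse. The ratios are descriptions and were not tested.

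**Figure D3:**
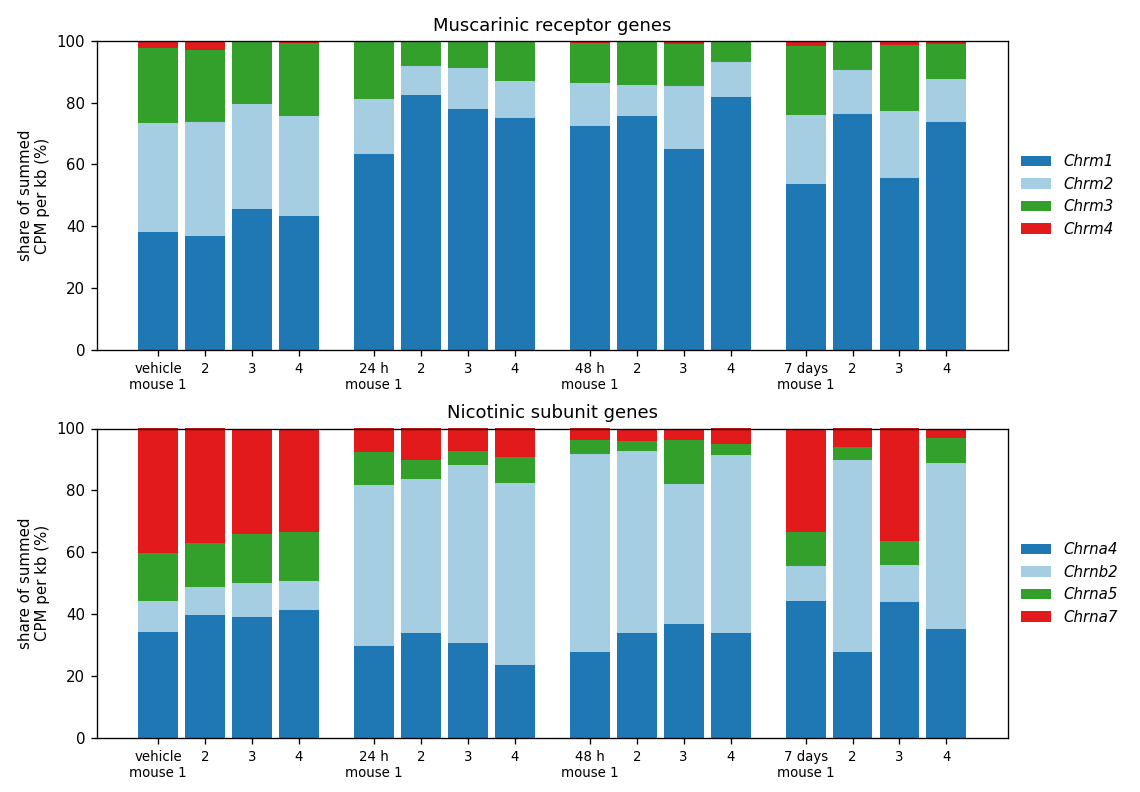
Share of each gene in the summed CPM per kb of the 4 muscarinic genes (top) and of the 4 nicotinic subunit genes (bottom), 1 bar per mouse, in percent. Chrm1 makes up 37.0% to 45.7% of the muscarinic sum in vehicle and 63.3% to 82.4% at 24 h, and Chrnb2 9.00% to 10.8% and 50.0% to 58.5% of the nicotinic sum. Among the 7-day mice the Chrnb2 share runs from 11.2% to 61.9%.

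As shares of each family, Chrm1 made up 41.1% ± 4.11 (SD, n = 4) of the muscarinic sum per kb in vehicle, 74.7% ± 8.14 after 24 h, 73.7% ± 7.04 after 48 h and 64.8% ± 11.8 after 7 days. Chrm2 went from 34.5% ± 1.86 in vehicle to 13.1% ± 3.46 at 24 h while its own level was not called. Among the nicotinic genes, Chrnb2 went from 9.86% ± 0.81 in vehicle to 54.5% ± 4.09 at 24 h and 56.4% ± 7.94 at 48 h, or 11.6%, 58.8% and 60.6% with shared bases left out of the length. Chrna7 went from 36.2% ± 3.05 to 8.59% ± 1.31 and 4.10% ± 0.59. At 7 days the Chrnb2 share ranged from 11.2% to 61.9% and the Chrna7 share from 2.96% to 36.4%. A share falls when another member rises, so these values do not add a separate test.

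The 2 libraries of a mouse gave close values for the members with many counts. The standard deviation between libraries of a mouse, on the log2 scale, was 0.11 for Chrm1 and 0.15 for Chrnb2, beside 0.68 and 0.86 between mice of a group, pooled over the 4 groups. The 7-day mice were the most spread. For Chrnb2 the standard deviation of CPM was 89.9% of the mean at 7 days, beside 24.7% in vehicle, 18.6% at 24 h and 13.7% at 48 h. On the log2 scale the library and pooled mouse values were 0.50 and 0.82 for Chrna7, and 0.65 and 0.62 for Chrna5, so the Chrna5 libraries differed as much as the mice. In 7-day mouse 2 the Chrna5 libraries had 24 and 3 counts. In 48 h mouse 3, which stood apart for Chrna5, they agreed at 12.9 and 14.0 CPM.

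**Figure D4:**
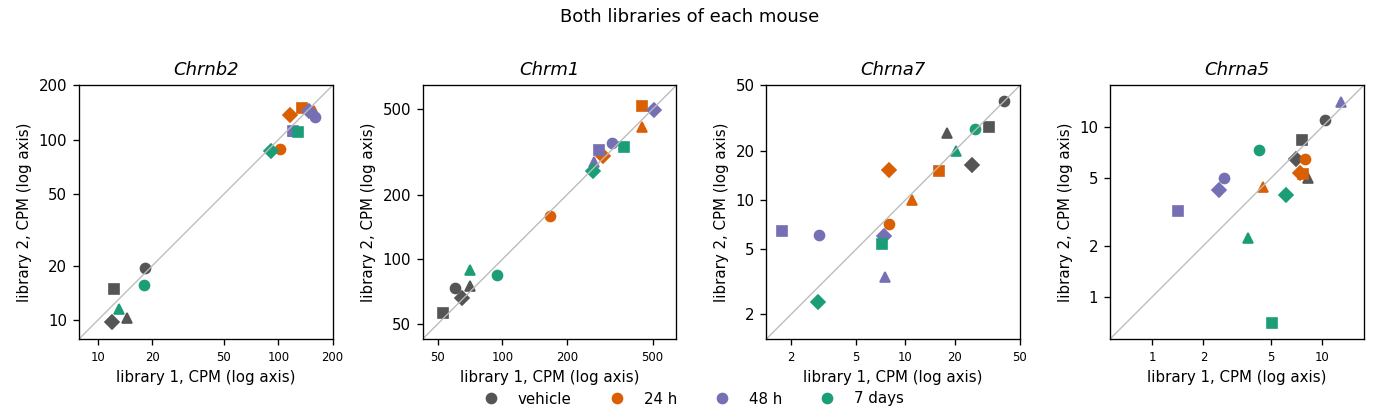
CPM in library 2 against library 1 of each of the 16 mice (log axes, grey line of equality) for Chrnb2, Chrm1, Chrna7 and Chrna5; symbols as in the plot of levels by mouse. Points lie close to the line for Chrnb2 and Chrm1 and scatter for Chrna5, where 7-day mouse 2 has 5.08 and 0.706 CPM.

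The other genes of the cholinergic system were followed in 4 lists with 49 genes, of which 35 could be tested. At 24 h 6 were called higher and 5 lower, at 48 h 6 higher and 4 lower, and at 7 days 0, where 8 had an unadjusted p under 0.05 in edgeR and DESeq2 called 3. Over all tested genes 13.8% were called higher and 10.4% lower at 24 h, and 16.8% and 13.3% at 48 h, and the counts of the lists below read against the same shares. Their median log2 fold change was 0.07, 0.17 and 0.04, beside 0.03, 0.02 and 0.02 over all genes. Without a single mouse the 24 h count was 6 to 10 and the 48 h count 8 to 9, where these fits called 2550 to 3933 and 3514 to 4899 genes in all. The 24 h count was 7 without vehicle mouse 1, 6 without vehicle mouse 3, 7 without vehicle mouse 4, 7 without 24 h mouse 2 and 6 without 24 h mouse 4.

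Of 13 other acetylcholine receptor subunits, 4 had enough counts to be tested and none was called at any time. Chrna2, a subunit found in some deep-layer interneurons, stood at 1.86 to 3.59 CPM in vehicle and 4.64 to 7.24 CPM at 48 h (log2 fold change 1.07, edgeR adjusted p = 0.216). Chrna3, a subunit of ganglionic receptors, stood at 1.75 to 3.74 CPM in vehicle and 0.722 to 12.8 CPM at 48 h (0.55, edgeR adjusted p = 0.533). Chrnb1, a subunit of the muscle receptor, stood at 0.471 to 1.65 CPM in vehicle and up to 6.64 CPM at 48 h (1.37, edgeR adjusted p = 0.0713). For Chrnb3 the values were 0.777 to 1.70 and 1.48 to 2.65 CPM (0.94, edgeR adjusted p = 0.363). The remaining 9 subunits, the muscarinic receptor Chrm5 among them, did not pass the filter on low counts.

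Of 8 genes for acetylcholine synthesis, transport and breakdown, 4 were tested, and 1 fell at 24 h. Slc44a1, a choline transporter, went from 76.6 to 114 CPM in vehicle to 50.2 to 94.9 CPM at 24 h (log2 fold change -0.56, SE 0.19, edgeR adjusted p = 0.0406) and was not called at 48 h (-0.50, edgeR adjusted p = 0.0561). Ache, the enzyme that breaks down acetylcholine, stood at 57.8 to 104 CPM in vehicle and 18.2 to 51.9 CPM at 24 h (-0.85, SE 0.35, edgeR adjusted p = 0.0846). Chat and Slc18a3, which make acetylcholine and load it into vesicles and so define cholinergic neurons, stood at 0 to 0.681 CPM and 0 to 0.294 CPM over all 16 mice. Slc5a7, the choline transporter of cholinergic terminals, was tested and not called: it had 0.294 to 2.52 CPM in vehicle and 2.11, 2.35, 2.10 and 10.04 CPM in 7-day mice 1 to 4 (log2 fold change 1.39, SE 0.65, edgeR adjusted p = 0.284). It is named here after its values were seen.

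Among 9 receptor assembly and prototoxin genes, 8 were tested, of which 1 rose and 3 fell at 24 h and 1 rose and 2 fell at 48 h. Ric3, a chaperone for Chrna7 receptors, went from 203 to 242 CPM in vehicle to 103 to 152 CPM at 24 h and 91.7 to 151 CPM at 48 h, without overlap. Its log2 fold change was -0.80 at 24 h (SE 0.20, edgeR adjusted p = 0.0104) and -0.79 at 48 h (SE 0.20, edgeR adjusted p = 0.00891). Lypd6b, a prototoxin that binds nicotinic receptors, fell by 0.77 on the log2 scale at 24 h (SE 0.24, edgeR adjusted p = 0.0260) and by 0.68 at 48 h (SE 0.24, edgeR adjusted p = 0.0379). Its relative Lypd6 fell at 24 h (-0.76, edgeR adjusted p = 0.0303) and stood at -0.53 at 48 h (edgeR adjusted p = 0.104), and the difference between the times was not called (0.24, edgeR adjusted p = 1). The gene that rose was Lynx1, a prototoxin that damps nicotinic receptors, at 0.74 (SE 0.26, edgeR adjusted p = 0.0435) and 0.80 (SE 0.26, edgeR adjusted p = 0.0265). Lypd6 and Lynx1 are named here because their values were seen to pass.

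All 19 muscarinic effector genes were tested, of which 5 rose and 1 fell at 24 h and 5 rose and 2 fell at 48 h, beside 4346 of all 17941 genes called at 24 h and 5395 at 48 h. Rgs4, which shortens Gq and Gi signals, went from 1101 to 1368 CPM in vehicle to 328 to 541 CPM at 24 h and 262 to 432 CPM at 48 h. Its log2 fold change was -1.51 (SE 0.27, edgeR adjusted p = 0.00273) and -1.69 (SE 0.27, edgeR adjusted p = 0.00158). Kcnj6, a G protein-gated potassium channel opened through Gi-coupled receptors, went from 5.88 to 8.85 CPM in vehicle to 22.9 to 28.9 CPM at 24 h and 29.2 to 51.1 CPM at 48 h. It rose by 1.87 (SE 0.36, edgeR adjusted p = 0.00329) and 2.35 (SE 0.37, edgeR adjusted p = 0.00155). At 7 days Kcnj6 stood at 6.08, 20.2, 7.57 and 24.5 CPM in mice 1 to 4, and Rgs4 at 886, 371, 573 and 304 CPM. The other genes that rose at both times, named after their values were seen, were Gnao1, Kcnq3, Adcy1 and Gnai2, with log2 fold changes of 0.52 to 1.62 at 24 h. Gnai3 averaged 40.5 CPM in vehicle, 25.8 at 24 h (-0.65, edgeR adjusted p = 0.0928) and 20.7 at 48 h, where it fell (-0.97, edgeR adjusted p = 0.0163). Its difference between 48 h and 24 h was not called (-0.32, edgeR adjusted p = 1).

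The genes most like a member over the 16 mice were sought among 10982 protein-coding genes by Pearson's r of log2 CPM, as a description. For Chrnb2 these were Grin2b (r = 0.993), Thy1 (0.989) and Inpp4a (0.988), and 4.11% of the genes had an r above 0.9. For Chrm1 they were Alg12 (0.983), Sez6l (0.981) and Epb41l1 (0.974), with 2.54% above 0.9. For Chrna7 they were Pgam5 (0.954), Mrps34 (0.954) and Acat2 (0.951), with 0.920% above 0.9. The 16 mice share the group differences in depth and Rn18s-rs5 share, which enter every such r.

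Markers of cell types were measured beside these results. The 5 neuron markers summed to 5526 to 5780 CPM in vehicle, 3951 to 5986 at 24 h and 3748 to 5798 at 48 h. Of these, Rbfox3, which encodes the NeuN protein used for the sort, went from 46.2 to 67.9 CPM in vehicle to 88.1 to 114.7 CPM at 24 h (log2 fold change 0.81, edgeR adjusted p = 0.0103). Snap25, a synaptic vesicle fusion protein and the most abundant of the 5, went the other way, from 3709 to 4324 CPM to 2269 to 3537 CPM (-0.58, edgeR adjusted p = 0.0395). The 5 glutamatergic neuron markers summed to 438 to 498 CPM in vehicle, 891 to 2350 after 24 h, 1396 to 2130 after 48 h and 410 to 1344 after 7 days. Of this last list 2 were called higher and 0 lower at 24 h and again at 48 h, Camk2a and Tbr1. Camk2a, a kinase of excitatory synapses, went from 151 to 222 CPM in vehicle to 620 to 2120 CPM at 24 h. Tbr1 averaged 42.4 CPM in vehicle, 75.6 at 24 h and 77.2 at 48 h. Slc17a7, the vesicular glutamate transporter, stood at 129 to 171 CPM in vehicle and 57.5 to 109 CPM at 24 h and was not called. The 9 interneuron markers summed to 1490 to 2843 CPM in vehicle and 1787 to 2539 at 24 h, with 1 called higher and 2 lower. Of these Gad1 and Gad2, the enzymes that make the transmitter GABA, averaged 630 and 258 CPM in vehicle and 353 and 167 at 24 h. Slc32a1, which loads GABA into vesicles, averaged 4.06 and 8.70 CPM. The 7 layer 6 markers summed to 224 to 239 CPM in vehicle and 154 to 197 at 24 h, where 1 of the 6 tested was called, Tle4, which averaged 103 CPM in vehicle and 57.4 at 24 h, while Foxp2 averaged 28.8 and 40.8 CPM. The 9 striatal projection neuron markers summed to 378 to 464 CPM in vehicle, 299.7 to 363 after 24 h, 381 to 737 after 48 h and 458 to 2073 after 7 days, where Chrm4 stayed at 0.466 to 0.837 CPM. Upper-layer markers (6) summed to 742 to 837 CPM in vehicle and 689 to 1076 at 24 h, and layer 5 markers (5) to 228 to 267 and 302 to 437. Of the upper-layer markers 2 were called higher and 0 lower at 24 h and again at 48 h. Among them Cux2 averaged 10.9 CPM in vehicle and 32.3 at 24 h, and Rasgrf2 67.6 and 137 CPM. Of the layer 5 markers 0 were called at 24 h and 1 was called higher at 48 h. Markers of astrocytes (5), oligodendrocytes (5), microglia (5) and endothelial cells (4) summed to 119 to 157, 147 to 324, 68.5 to 106 and 0.754 to 3.86 CPM in vehicle, and to 81.4 to 188, 147 to 226, 39.9 to 83.5 and 1.33 to 9.20 CPM at 24 h. The 5 cholinergic neuron markers summed to 1.08 to 2.82 CPM in vehicle, 1.06 to 3.41 after 24 h, 1.67 to 5.02 after 48 h and 2.28 to 11.6 after 7 days, with the highest sum in 7-day mouse 4. Lhx8 was at 0 in every vehicle mouse and reached 1.12 CPM at 7 days, and Gbx2 was at 0 in every mouse after DOI. The part of these values in the receptor results was not tested. In pooled nuclei, fewer nuclei of a type and less RNA per nucleus cannot be told apart.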

How the data were processed

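Per the labels' protocols, nuclei sorted for NeuN were sequenced with SMART-seq2 cDNA and Nextera XT libraries. Per the file headers, the authors counted reads over exons of GRCm38 Ensembl genes with featureCounts 2.0.0 and deposited raw counts, with no strand or multi-mapping option. The submitters' processing notes also name mm10, Trim Galore 0.6.5 and Bowtie2 2.4.1, with no role given. For 3 mice the header carried mouse number 6, and the labels were used. Each mouse's 2 libraries were added together. Symbols were found for 55141 of 55401 IDs (99.5%).

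Genes were kept with filterByExpr (17941), scaled with TMM and fitted over 4 groups with edgeR 4.0.16 (R 4.3.3, glmQLFit and glmQLFTest), with Benjamini-Hochberg adjustment at 0.05. Standard errors came from the fold change and F. Alternatives used DESeq2 1.42.0 and limma 3.58.1. On simulated counts the fit was tested before use. The members, lists and rules were chosen with earlier results of these data known. All members were named. From 4 other lists, the 2 genes with the smallest 4-group p and every tested subunit were named. Nothing in the labels says whether mouse numbers mark a shared source, and p-values measure the spread between these mice. The H3K27ac samples were not analysed here.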

Additional observations from a re-analysis of the deposited data

Results flagged for a closer look

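Chrna5 in 48 h mouse 3 stood far from the other 3 mice of its group, at 13.6 CPM against 3.90 CPM in the nearest mouse, a gap of 86.1% of the range. Both libraries of this mouse were high, at 12.9 and 14.0 CPM. Of 32 combinations of member and group examined, this 1 passed Dixon's limit for 4 samples, and chance alone gives about 1 in 20, or 1.6 of 32. Without this mouse the log2 fold change of Chrna5 at 48 h was -1.33 (edgeR adjusted p = 0.0248) instead of -0.47.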

How the results depend on the processing

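Counts of called members and other cholinergic genes moved by over 1.5 times under some alternatives, and the cause was not tested. With the Rn18s-rs5 share as a covariate (chosen after seeing the data) 0 members and 0 other genes were called at 24 h or 48 h, and 0 members when 4 groups were compared. With the mitochondrial share, 0 members and 0 others were called at 48 h, 5 others at 24 h and 1 member among 4 groups. Over all 17941 genes that fit called 0 at 48 h, 2263 at 24 h and 131 among 4 groups. Voom with quality weights called 5 members at 24 h and 5 among 4 groups, where it called 7236 and 7121 of 17941 genes. At 7 days 2 members and 3 others were called with DESeq2, 2 and 3 with no filter, 1 and 2 with 32 libraries and the mouse as a random effect, and 2 and 2 at a threshold of 0.1. Over all genes these first 3 fits called 796 of 17941, 958 of 36503 and 308 of 15613. Against 24 h and 48 h, 7-day members called were 1 and 2 with no filter, and 2 and 2 with 32 libraries. Over all genes these 2 fits called 504 and 665 of 36503, and 955 and 1205 of 15613. A fit of only the groups compared called 16 others at 48 h, among 6824 of 16424 genes. A threshold of 0.01 left 4 others at 24 h and 6 at 48 h, and no count over all genes was made at the thresholds of 0.01 and 0.1. Without 1 mouse, members called numbered 2 (24 h), 3 to 4 (48 h), 0 to 2 (7 days), 0 to 1 (7 days against 48 h) and 2 to 4 (4 groups). Others called were then 6 to 10 (24 h), 8 to 9 (48 h) and 0 to 5 (7 days, with 5 without mouse 1 or mouse 3). Over all genes the fits without 1 mouse called 2550 to 3933 (24 h), 3514 to 4899 (48 h), 0 to 1342 (7 days), 0 to 438 (7 days against 48 h) and 1475 to 4481 (4 groups).

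Sign changes occurred among log2 fold changes that were not called. Under the mitochondrial covariate these were Chrm2 at 24 h (-0.22) and 48 h (-0.48), Chrna4 at 7 days (-0.0314), Chrm1 (-0.53), Chrm2 (-0.26), Chrna4 (-0.0665) and Chrnb2 (-0.52) at 48 h against 24 h, and Chrna5 at 7 days against 48 h (0.43). Under the Rn18s-rs5 covariate they were Chrm2 at 24 h (-0.51) and 48 h (-0.45), Chrm1 (-0.0836) and Chrnb2 (-0.16) at 48 h against 24 h, and Chrm2 at 7 days against 24 h (0.0866) and 48 h (0.0237). With no filter Chrm2 at 24 h was -0.0148. Voom gave -0.17 for Chrm1 and -0.10 for Chrnb2 at 48 h against 24 h and -0.10 for Chrna7 at 7 days against 24 h. Library 2 alone gave 0.32 for Chrna5 and -0.042 for Chrnb2 at 48 h against 24 h. Leaving out 1 mouse gave ranges of -0.13 to 0.11 (Chrm2, 24 h), -0.0332 to 0.14 (Chrna4, 7 days), -0.19 to 0.25 (Chrm1), -0.96 to 0.16 (Chrna5) and -0.0826 to 0.13 (Chrnb2) at 48 h against 24 h, -0.17 to 0.69 (Chrna7, 7 days against 24 h) and -0.70 to 0.42 (Chrna5, 7 days against 48 h).

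With the mouse number as a replicate block 2 members were called at 24 h, 4 at 48 h and 0 at 7 days, beside 3667, 4664 and 0 of 17941 genes, and Chrna7 at 24 h lost its call. Deviations of mice with the same label number correlated at -0.28 to 0.24 (mean -0.04), beside -0.25 to 0.31 (mean 0.01) for other numbers. Since 3 mice carry another number in the header, neither this comparison nor the block fit can decide whether numbers pair mice. The numbers were not taken to pair the mice. CPM were printed with no prior count and the log2 CPM behind r used a prior count of 2, with no separate fit. Depth limits Chrm4, at 0 to 10 counts per mouse.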
